A study of Mus musculus with 18 samples.

Results

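The CC chemokines described here are the 10 genes *Ccl1*, *Ccl2*, *Ccl3*, *Ccl4*, *Ccl5*, *Ccl6*, *Ccl7*, *Ccl9*, *Ccl17* and *Ccl22*, taken as the rows of the expression table whose symbol is one of these names. Each name was found in 1 row, so that 10 of 62197 rows were described, and all 10 passed the filter on low values. CC chemokines are small secreted proteins that attract leukocytes by binding G protein-coupled receptors on their surface. Dendritic cells (DCs) release them after meeting microbial products, and the mixture of ligands helps to set which monocytes, T cells or granulocytes gather around them. *Ccl3*, *Ccl4* and *Ccl5* encode chemokines that attract T cells and monocytes, *Ccl17* and *Ccl22* ligands of CCR4, *Ccl2* and *Ccl7* ligands of CCR2, *Ccl6* and *Ccl9* ligands of CCR1, and *Ccl1* a ligand of CCR8.

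Bulk RNA-seq compared DCs grown from mouse bone marrow of the genotypes cPLA_2_ WT and cPLA_2_ KO. Cells were kept for 10 days in medium with fetal calf serum and a supernatant containing granulocyte-macrophage colony-stimulating factor. Nonconfined cells were collected directly when the culture ended, confined cells 4 h after being placed under a height of 3 µm, and LPS cells the day after exposure to 100 ng ml-1 lipopolysaccharide (LPS), a component of bacterial walls. The 6 conditions had 3 libraries each, 18 in total. According to the labels LPS was washed away after 30 min, whereas the methods of the study give a slightly shorter time. The knockout is conditional, with floxed *Pla2g4a* deleted by a Cre recombinase under the *Itgax* promoter, so that cells of the culture that do not switch on *Itgax* keep the gene. The mice were male or female adults, per the methods of the study. The protocol text of the labels mentions LPS for all samples, but the titles and treatment entries name it only for the LPS groups and were followed. The time of collection differed between nonconfined, confined and LPS cells, so treatment and time cannot be told apart. Nothing in the labels says whether the 3 libraries of a condition came from separate animals, and p-values measure the spread between these libraries only.

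The labels of the LPS libraries did not match the gene they should reflect. *Pla2g4a*, which encodes cPLA_2_, was at 697, 686 and 770 normalized counts in the nonconfined cPLA_2_ WT libraries and at 548, 542 and 533 in the nonconfined cPLA_2_ KO libraries. Confined cells had 1369, 1430 and 1321 in cPLA_2_ WT and 923, 871 and 920 in cPLA_2_ KO. The libraries labelled LPS cPLA_2_ WT had 1005, 969 and 967 and those labelled LPS cPLA_2_ KO had 1065, 1032 and 1028. Within nonconfined and within confined cells the gene was thus lower in every knockout library than in every wild-type library, and after LPS it was higher in every library labelled knockout. The sizes were small. By limma *Pla2g4a* differed on the log2 scale by -0.41 in nonconfined cells, -0.60 in confined cells and 0.09 between LPS labels, and was called in none. It was present in all knockout libraries, and confined cPLA_2_ KO libraries lay above nonconfined cPLA_2_ WT libraries. *Ddx3y*, a gene of the Y chromosome, was at most at 3.05 normalized counts in the 6 nonconfined and confined cPLA_2_ WT libraries and between 874 and 1036 in the 6 cPLA_2_ KO libraries, so the presence of cells with a Y chromosome and genotype cannot be told apart here. *Xist*, expressed by female cells, was between 22734 and 33681 in these cPLA_2_ WT libraries and between 12153 and 24835 in the cPLA_2_ KO libraries, which thus held RNA of both kinds. Of the 5 genes that check sex, the 4 of the Y chromosome were called higher and *Xist* lower in nonconfined cPLA_2_ KO than in cPLA_2_ WT cells, and 4 higher in confined cells. *Ddx3y* was at 1271, 0 and 662 in the libraries labelled LPS cPLA_2_ WT and at 2.12, 1476 and 783 in those labelled LPS cPLA_2_ KO. For this reason the LPS groups are called by their labels, and comparisons of LPS with other cells use the mean of both labels.

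The labelled cell type was checked against 9 DC genes, all of them present. *Cd74*, the most abundant, ranged from 189379 to 336000 normalized counts over the 18 libraries, *Itgax* from 4194 to 7192 and *Zbtb46* from 468 to 1379. *Flt3* was low, between 27.0 and 166. *Cd209a* was at 154 ± 1.06 (SD, n = 3) in nonconfined cPLA_2_ WT cells and at 25.4 ± 9.67 (SD, n = 3) in confined ones. With confinement 4 of the 9 DC genes were called lower in each genotype and 0 higher by limma. Of all genes 7.62% were called lower in cPLA_2_ WT and 5.53% in cPLA_2_ KO cells, and 11.4% and 6.43% higher. With LPS 2 of the 9 were called lower (13.4% of all genes) and 0 higher (15.6% of all genes). *Cd209a* was lowest after LPS, with means of 12.1 and 8.35 under the labels cPLA_2_ WT and cPLA_2_ KO. Genes of other cells were present as well. The summed level of 9 neutrophil genes, led by *S100a9*, averaged 257594 and 374724 in nonconfined cells of cPLA_2_ WT and cPLA_2_ KO, 165566 and 360931 in confined cells of these genotypes, and 308410 and 305768 in the libraries labelled LPS cPLA_2_ WT and LPS cPLA_2_ KO. The sum of 5 eosinophil genes, led by *Prg2*, was 28061, 65515, 7099, 16431, 31601 and 31620 in the same order. The sum of 10 mast cell and basophil genes, among them *Cpa3* and *Prss34*, was 9894, 14430, 4384, 7535, 9625 and 9826, with *Tpsab1* at 0 in every library. Macrophage genes (9, among them *Adgre1* and *Mrc1*) summed to 19046, 23872, 17473, 19252, 34419 and 33555, but the higher sum after LPS came mainly from *Marco* and *Adgre1*. With LPS 1 of the 8 tested macrophage genes, *Marco*, was called higher (15.6% of all genes). The median was -0.37, and *C1qa*, *C1qb*, *C1qc*, *Mertk* and *Mrc1* had log2 changes below 0. *Cd163* was under 10 in every library. T cell genes (5 of 6 in the table, led by *Cd3g*) summed to 2485, 3051, 775, 1132, 477 and 490, most of it *Cd3g*, at 2306 in nonconfined cPLA_2_ WT cells, where *Cd3e* was at 22.7. Natural killer cell genes were under 10 in every library. In bulk RNA, fewer cells of a type and less RNA per cell cannot be told apart, and the part of these cells in the chemokine levels was not tested. According to the methods of the study, cells were separated by adhesion to leave out granulocytes, which float, and macrophages, which stick to the plate.

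Values are normalized counts, that is, gene counts divided by a size factor for each library. Differences are on the log2(normalized count + 1) scale and were tested with limma over 17875 genes, in a fit of all 18 libraries with a mean for each condition. To be called, a gene had to pass a threshold of 0.05 on the Benjamini-Hochberg adjusted p and differ by more than 1 on the log2 scale in either direction. Libraries held 33027230 to 61300021 reads on genes, so that counting error was small for all members but *Ccl1* in nonconfined and confined cells. Together the 10 members took 0.741% ± 0.00709 of the reads (SD, n = 3) in nonconfined cPLA_2_ WT and 0.813% ± 0.0280 in nonconfined cPLA_2_ KO cells. Confined cells of cPLA_2_ WT gave them 0.879% ± 0.00762 and those of cPLA_2_ KO 0.899% ± 0.0197, and the share was 2.66% ± 0.0350 and 2.73% ± 0.0137 in the libraries labelled LPS cPLA_2_ WT and LPS cPLA_2_ KO (n = 3 each). *Ccl6* alone took 0.431% and 0.540% in nonconfined cells of cPLA_2_ WT and cPLA_2_ KO, and 0.447% and 0.696% in confined cells. The sum is therefore no measure of the other members.

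The first question was what confinement did to these genes in cPLA_2_ WT cells. Confinement raised 5 of the 10 members, *Ccl1*, *Ccl3*, *Ccl4*, *Ccl5* and *Ccl9*, where 11.4% of all genes tested were called higher. No member was called lower by limma, where 7.62% of all genes were, and the same 0 came from edgeR and DESeq2; 1 member was lower at an unadjusted p under 0.05. By the adjusted p alone, 9 members were higher (28.2% of all genes) and *Ccl2* was lower (28.4% of all genes); *Ccl7*, the weakest of the 9, was at 0.22 and turned to -0.000632 when every library was given an equal total, and *Ccl6* and *Ccl17* then had adjusted p of 0.263 and 0.347. Among the members the median change was 0.82, against -0.01 over all genes. Scaling to the same total moved that median of all genes to -0.23, and left the 5 calls in place.

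In cPLA_2_ KO cells confinement raised *Ccl1* alone among the members (6.43% of all genes were called higher) and lowered *Ccl5* and *Ccl22* (5.53% of all genes were called lower). *Ccl9* stayed just under the threshold on the fold change at 0.98, and passed it at 1.01 without replicate 1 of confined cPLA_2_ KO. By the adjusted p alone 5 members were higher (22.8% of all genes) and 5 lower (23.4% of all genes). The lower ones were *Ccl2*, *Ccl5*, *Ccl7*, *Ccl17* and *Ccl22*. The median over the members was 0.13, against 0.01 over all genes.

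Whether the response to confinement differed between genotypes was tested as an interaction. For 4 members, *Ccl3*, *Ccl4*, *Ccl5* and *Ccl22*, the change with confinement was lower in cPLA_2_ KO than in cPLA_2_ WT cells (6.56% of all genes were called lower). No member was called in the other direction, where 1.11% of all genes were, with 0 members there by edgeR, by DESeq2 and at an unadjusted p under 0.05. By the adjusted p alone the count was 7 lower, with *Ccl7*, *Ccl9* and *Ccl17* added (15.6% of all genes), and 0 higher (10.2% of all genes). For *Ccl1*, *Ccl2* and *Ccl6* the interaction was -0.01, -0.22 and 0.12 with adjusted p of 0.983, 0.237 and 0.222 from limma, though for *Ccl6* it was 0.31 (adjusted p = 0.00033) when every library had an equal total. The median interaction of the members was -0.56, against 0.05 over all genes.

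Genotypes were also compared within a treatment. Nonconfined cells had 0 members called higher (0.85% of all genes) and 0 called lower (0.302% of all genes) by limma, edgeR and DESeq2. By limma's adjusted p alone *Ccl3* and *Ccl6* were higher in cPLA_2_ KO cells (2 members, 4.78% of all genes), and *Ccl5* and *Ccl17* were lower (2 members, 4.11% of all genes), as was *Ccl22* with the same total per library (-0.17, adjusted p = 0.00713). At an unadjusted p under 0.05 there were 2 higher and 3 lower, where 4005 of all 17875 genes passed in either direction. Confined cells had 4 members called lower in cPLA_2_ KO than in cPLA_2_ WT (7.31% of all genes), again *Ccl3*, *Ccl4*, *Ccl5* and *Ccl22*, and 0 called higher (2.79% of all genes) by limma, edgeR or DESeq2, with 1 higher at an unadjusted p under 0.05. By the adjusted p alone *Ccl6* was higher (18.8% of all genes) and 8 members were lower (20.6% of all genes), which left *Ccl1*. With the same total per library *Ccl2* was no longer among them (-0.11, adjusted p = 0.312). The median difference was -0.10 in nonconfined and -0.80 in confined cells, against -0.00156 and 0.04 over all genes.

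**Figure D1:**
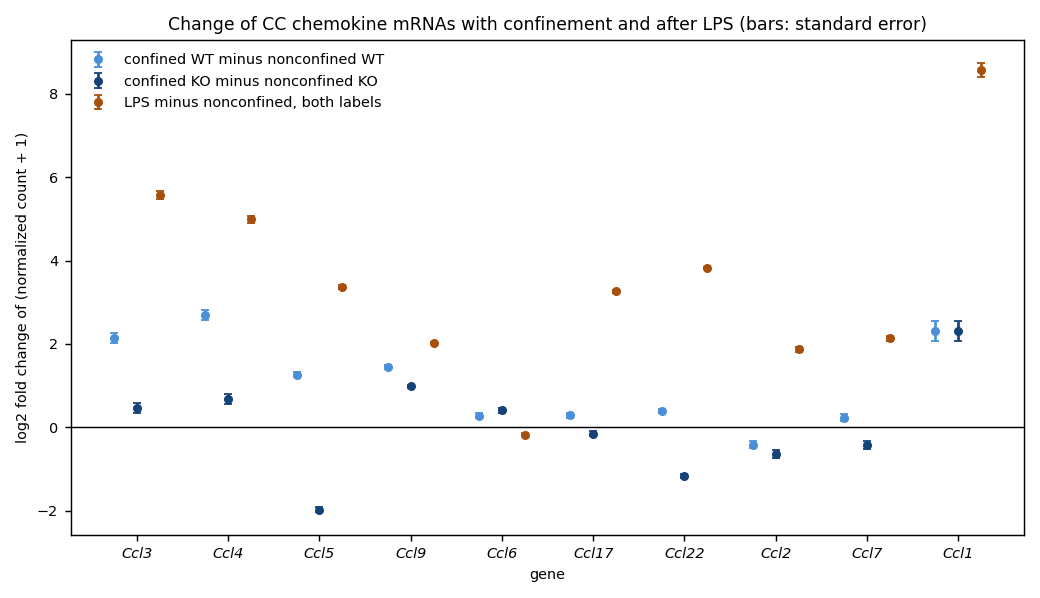
Log2 fold change with its standard error for the 10 CC chemokines with confinement in cPLA_2_ WT cells, with confinement in cPLA_2_ KO cells and with LPS (mean of both labels), each against nonconfined cells (limma, 3 libraries per condition). *Ccl5* lies at 1.26, -1.98 and 3.37 in the 3 comparisons, and *Ccl22* at 0.39, -1.17 and 3.82.

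LPS was compared with nonconfined cells as the mean over both labels. It raised 9 of the 10 members (15.6% of all genes were called higher) and lowered none (13.4% of all genes were called lower; 0 members by limma, edgeR and DESeq2, 1 at an unadjusted p under 0.05). The exception was *Ccl6*. The median over the members was 3.32, against 0.02 over all genes, which became -0.46 with the same total per library. Between the libraries labelled LPS cPLA_2_ KO and LPS cPLA_2_ WT no member was called in either direction, and neither was any gene tested, that is, 0% higher and 0% lower. The count of 0 came from limma, edgeR and DESeq2 alike, and at an unadjusted p under 0.05 limma gave 890 of the 17875 genes and 0 members. This says nothing about the genotypes, given the levels of *Pla2g4a* and *Ddx3y* in these libraries.

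The same LPS libraries were set against confined cells. In confined cPLA_2_ WT cells 8 members were lower than after LPS (7.84% of all genes were called lower) and 0 were higher (6.97% of all genes were called higher). In confined cPLA_2_ KO cells 9 were lower (12.9%) and 0 higher (10.7%). Both counts of 0 were the same with edgeR and DESeq2, with 1 member, *Ccl6*, higher in each comparison at an unadjusted p under 0.05. With the same total per library, however, *Ccl6* was called higher in confined cPLA_2_ KO cells (1.20) and *Ccl9* was no longer called lower (-0.64), and all genes called went from 1914 higher and 2313 lower to 4021 higher and 1580 lower. Of the members lower in confined cPLA_2_ WT cells by the adjusted p, only *Ccl9* was under the threshold on the fold change. It was at -0.55, or -0.26 with the same total per library. *Ccl6*, higher there by the adjusted p, was also under this threshold at 0.28. The median difference from LPS was -2.31 for confined cPLA_2_ WT and -3.93 for confined cPLA_2_ KO cells, against -0.01 and 0.03 over all genes. These comparisons share their libraries with those above, so their counts are not independent of them.

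*Ccl5* (RANTES) attracts T cells and monocytes. It was at 6747, 6580 and 6693 normalized counts in the nonconfined cPLA_2_ WT libraries and at 6395, 5426 and 5902 in the nonconfined cPLA_2_ KO libraries. Confined cPLA_2_ WT libraries had 16209, 15758 and 16044, and confined cPLA_2_ KO libraries 1395, 1481 and 1610. After LPS the values were 61554, 63751 and 64755 under the label cPLA_2_ WT and 69222, 63297 and 66222 under the label cPLA_2_ KO. The 3 confined cPLA_2_ KO libraries were the lowest of all 18 and the 3 confined cPLA_2_ WT libraries lay between the nonconfined and the LPS libraries, with no overlap between these conditions. Confinement thus moved *Ccl5* in opposite directions, by a log2 fold change of 1.26 in cPLA_2_ WT (standard error 0.06, adjusted p = 2.47e-14 from limma) and of -1.98 in cPLA_2_ KO cells (standard error 0.06, adjusted p = 7.12e-17 from limma). The interaction was -3.24 (standard error 0.08, adjusted p = 3.85e-18 from limma). Confined cPLA_2_ KO cells had 10.7-fold less *Ccl5* than confined cPLA_2_ WT cells. The order of the means was confined cPLA_2_ KO, nonconfined cPLA_2_ KO, nonconfined cPLA_2_ WT, confined cPLA_2_ WT and the LPS labels, of which the last pair overlapped.

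*Ccl4* (MIP-1β) attracts similar cells. Nonconfined libraries had 2189, 2189 and 2146 normalized counts in cPLA_2_ WT and 2475, 2216 and 2398 in cPLA_2_ KO. With confinement the values were 14709, 13709 and 13929 in cPLA_2_ WT and 3814, 3854 and 3670 in cPLA_2_ KO. The libraries labelled LPS had 88681, 58262 and 72719 (cPLA_2_ WT) and 59376, 86288 and 72587 (cPLA_2_ KO). Every confined library was above every nonconfined one, but the cPLA_2_ WT libraries rose to more than the cPLA_2_ KO libraries. The ratio of means was 6.49 with confinement in cPLA_2_ WT (adjusted p = 1.09e-14 from limma) and 1.60 in cPLA_2_ KO cells (adjusted p = 3.97e-05 from limma), with an interaction of -2.02 (standard error 0.16, adjusted p = 1.73e-09). Confined cells of the genotypes differed 3.73-fold.

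*Ccl3* (MIP-1α), a ligand of CCR1, had the largest log2 difference between nonconfined genotypes among the members in the main fit. With the same total per library that of *Ccl17* was larger in size (-0.42, against 0.41 for *Ccl3*). The values of *Ccl3* were 665, 621 and 605 in nonconfined cPLA_2_ WT libraries and 931, 809 and 841 in nonconfined cPLA_2_ KO libraries, without overlap (log2 difference 0.45, standard error 0.13, adjusted p = 0.0304 from limma, under the threshold on the fold change). Confinement brought it to 2802, 2763 and 2763 in cPLA_2_ WT and to 1191, 1141 and 1215 in cPLA_2_ KO cells. The LPS values were 44336, 28336 and 34943 for the label cPLA_2_ WT and 27569, 42426 and 36708 for the label cPLA_2_ KO. The order of the genotypes was reversed between nonconfined and confined cells. The log2 fold change with confinement was 2.14 in cPLA_2_ WT (standard error 0.13, adjusted p = 4.24e-12 from limma) and 0.46 in cPLA_2_ KO cells (standard error 0.13, adjusted p = 0.00502 from limma), and the interaction was -1.68 (standard error 0.18, adjusted p = 2.14e-07). With LPS it rose 47.9-fold and *Ccl4* 32.2-fold. For both genes the conditions followed the order nonconfined cPLA_2_ WT, nonconfined cPLA_2_ KO, confined cPLA_2_ KO, confined cPLA_2_ WT and LPS, and only the LPS labels overlapped. The nonconfined genotypes did not differ by the test for *Ccl4*, however (log2 difference 0.12, adjusted p = 0.601 from limma).

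Of the CCR4 ligands, *Ccl22* (MDC) is made by mature DCs and attracts regulatory and helper T cells. The nonconfined libraries had 56584, 54570 and 55835 normalized counts in cPLA_2_ WT and 52680, 50629 and 48696 in cPLA_2_ KO. Confined cells had 74887, 71370 and 72314 in cPLA_2_ WT and 23619, 21529 and 22453 in cPLA_2_ KO. Its highest values came with LPS, at 725970, 731194 and 751870 under the label cPLA_2_ WT and 773559, 753798 and 764190 under the label cPLA_2_ KO. No libraries of different conditions overlapped, but the LPS labels did not differ by the test (log2 difference 0.05, adjusted p = 1 from limma). In cPLA_2_ WT cells the log2 fold change with confinement was 0.39 (standard error 0.04, adjusted p = 9.85e-08 from limma), under the threshold on the fold change and 0.16 with the same total per library, and in cPLA_2_ KO cells it was -1.17 (standard error 0.04, adjusted p = 6.11e-15 from limma). The interaction of -1.56 (standard error 0.06, adjusted p = 1.14e-14) and a 3.23-fold lower level in confined cPLA_2_ KO than in confined cPLA_2_ WT cells followed. LPS raised *Ccl22* 14.1-fold. It then took 1.51% ± 0.0411 of all reads (SD, n = 3) under the label cPLA_2_ WT and 1.57% ± 0.0446 (SD, n = 3) under the label cPLA_2_ KO, compared with 0.0629% ± 0.00196 (SD, n = 3) in confined cPLA_2_ KO cells.

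*Ccl17* (TARC), near *Ccl22* on chromosome 8 and a ligand of the same receptor, was at 18080, 17903 and 17654 in nonconfined cPLA_2_ WT and at 14556, 12795 and 13655 in nonconfined cPLA_2_ KO libraries. Confined libraries had 22734, 20835 and 21864 in cPLA_2_ WT and 11970, 12550 and 12355 in cPLA_2_ KO. After LPS it was at 142916, 157759 and 148347 (label cPLA_2_ WT) and at 160478, 142700 and 148751 (label cPLA_2_ KO). The knockout libraries lay below the wild-type libraries both with and without confinement. The difference between genotypes was -0.39 in nonconfined cells (standard error 0.05, adjusted p = 6.98e-05 from limma) and -0.83 in confined cells (standard error 0.05, adjusted p = 2.51e-11 from limma). The changes with confinement were small, 0.29 in cPLA_2_ WT and -0.15 in cPLA_2_ KO (adjusted p = 7.69e-05 and 0.0221), with an interaction of -0.44 (adjusted p = 0.000106). With the same total per library the cPLA_2_ WT value shrank to 0.06. LPS raised *Ccl17* 9.52-fold. *Ccl17* and *Ccl22* shared the order confined cPLA_2_ KO, nonconfined cPLA_2_ KO, nonconfined cPLA_2_ WT, confined cPLA_2_ WT and LPS.

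The CCR2 ligands *Ccl2* (MCP-1) and *Ccl7* (MCP-3) attract monocytes. *Ccl2* was at 7812, 7587 and 7686 in nonconfined cPLA_2_ WT and at 7872, 7231 and 7317 in nonconfined cPLA_2_ KO libraries, which overlapped. Confined libraries were lower, with 6133, 5454 and 5705 in cPLA_2_ WT and 4786, 4696 and 4931 in cPLA_2_ KO. It was the member that fell with confinement in both genotypes by the adjusted p, with log2 fold changes of -0.42 (standard error 0.09, adjusted p = 0.000488 from limma) and -0.64 (standard error 0.09, adjusted p = 6.62e-06 from limma), both under the threshold on the fold change. With the same total per library these were -0.64 in cPLA_2_ WT and -0.67 in cPLA_2_ KO cells, and the interaction was -0.03. *Ccl7* had 1602, 1627 and 1667 in nonconfined and 1972, 1869 and 1879 in confined cPLA_2_ WT libraries. In cPLA_2_ KO cells it had 1610, 1367 and 1492 without and 1132, 1190 and 1008 with confinement. Its log2 change was 0.22 in cPLA_2_ WT (adjusted p = 0.0318 from limma), which was gone with the same total per library (-0.000632, adjusted p = 0.996), and -0.42 in cPLA_2_ KO (adjusted p = 0.000373), with an interaction of -0.65 (standard error 0.12, adjusted p = 0.000345). After LPS *Ccl2* was at 30979, 22841 and 28046 (label cPLA_2_ WT) and 24237, 32696 and 28836 (label cPLA_2_ KO), and *Ccl7* at 7209, 5767 and 7069 (label cPLA_2_ WT) and 6232, 7832 and 7209 (label cPLA_2_ KO). LPS raised these genes 3.68-fold and 4.41-fold.

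*Ccl9*, a CCR1 ligand of rodents that attracts DCs and other myeloid cells, was at 13186, 13768 and 13610 in nonconfined cPLA_2_ WT and at 13237, 12446 and 12930 in nonconfined cPLA_2_ KO libraries. Confined cPLA_2_ WT libraries had 38157, 35495 and 36748 and confined cPLA_2_ KO libraries 24304, 25958 and 25846. Under LPS the values were 51576, 54194 and 53822 (label cPLA_2_ WT) and 54025, 53896 and 54826 (label cPLA_2_ KO). Among the members with a lower response in the knockout it kept the largest part of its change, and all confined libraries were above all nonconfined ones. The log2 fold change with confinement was 1.44 in cPLA_2_ WT (standard error 0.04, adjusted p = 1.24e-17 from limma) and 0.98 in cPLA_2_ KO cells (standard error 0.04, adjusted p = 3.85e-14 from limma), with an interaction of -0.47 (standard error 0.06, adjusted p = 1.8e-06). The nonconfined genotypes overlapped, as did the LPS labels.

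*Ccl6*, another CCR1 ligand of rodents made by myeloid cells, behaved unlike the other members. Its values were 144511, 148526 and 147869 in nonconfined cPLA_2_ WT and 196078, 177626 and 192551 in nonconfined cPLA_2_ KO libraries. Confined libraries had 182444, 177793 and 175272 in cPLA_2_ WT and 248283, 251851 and 247924 in cPLA_2_ KO. LPS libraries had 153037, 141377 and 147797 (label cPLA_2_ WT) and 137436, 155872 and 149202 (label cPLA_2_ KO). Nonconfined and confined knockout libraries were higher than the wild-type libraries of the same treatment, the LPS labels overlapped, the confined cPLA_2_ KO libraries were the highest of all, and LPS libraries overlapped nonconfined cPLA_2_ WT libraries. The genotypes differed by 0.36 in nonconfined (standard error 0.05, adjusted p = 9.85e-05 from limma) and 0.48 in confined cells (standard error 0.05, adjusted p = 7.35e-08 from limma). Confinement changed it by 0.28 for cPLA_2_ WT and by 0.40 for cPLA_2_ KO (adjusted p = 5.44e-05 and 9.21e-07), and the first shrank to 0.06 with the same total per library. The difference of LPS from nonconfined cells was -0.18 (adjusted p = 0.000128), but 0.00361 (adjusted p = 0.957) from the libraries labelled cPLA_2_ WT alone. It depended on scaling, since with the same total per library the difference was -0.67 (adjusted p = 1.41e-14). Per length and at one depth the LPS libraries, at most at 2191, lay below the nonconfined cPLA_2_ WT libraries, at least at 2925.

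*Ccl1*, a ligand of CCR8 on T cells, had few reads without LPS. It was at 9.14, 6.82 and 9.83 in nonconfined cPLA_2_ WT and at 4.70, 7.45 and 7.76 in nonconfined cPLA_2_ KO libraries. With confinement it was at 40.6, 47.2 and 52.1 in cPLA_2_ WT and at 30.2, 27.7 and 55.6 in cPLA_2_ KO libraries. LPS libraries had 3496, 2545 and 3407 (label cPLA_2_ WT) and 2743, 3891 and 3421 (label cPLA_2_ KO). The genotypes overlapped in each treatment, and the 3 treatments did not overlap. With confinement the log2 fold change of *Ccl1* was 2.32 for cPLA_2_ WT (adjusted p = 3.47e-08 from limma) and 2.30 for cPLA_2_ KO cells (adjusted p = 7.85e-08), each with a standard error of 0.24. The interaction of -0.01 has a standard error of 0.34, so that a difference between genotypes could not be detected unless it was large. LPS raised *Ccl1* 427-fold, more than any other member.

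**Figure D2:**
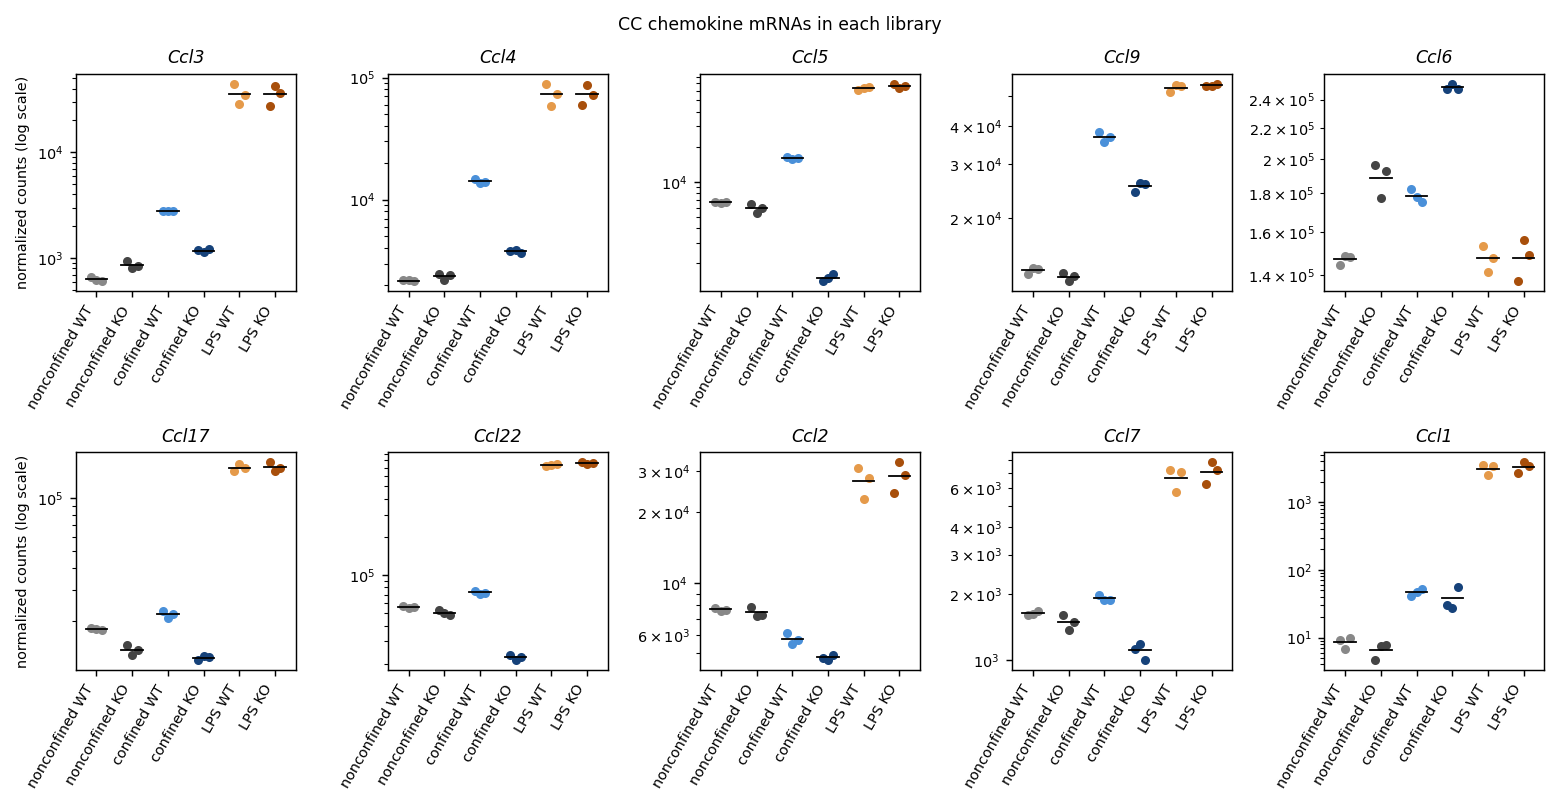
Normalized counts of the 10 CC chemokines in each of the 18 libraries (log axes, one dot per library, 3 libraries per condition). *Ccl5* lies between 1395 and 1610 in confined cPLA_2_ KO cells, below all other libraries, and *Ccl6* lies between 137436 and 251851 in all libraries.

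Within the LPS libraries several members followed the order of *Ddx3y*. Replicate 1 of the label cPLA_2_ WT and replicate 2 of the label cPLA_2_ KO, which had the highest *Ddx3y*, had the highest *Ccl2*, *Ccl3* and *Ccl4* of their labels, and the libraries with at most 2.12 counts of *Ddx3y* had the lowest. *Ccl1*, *Ccl6* and *Ccl7* followed the same order, and *Ccl17* the opposite one. Summed eosinophil genes were at 39894, 23386 and 31523 in the libraries labelled cPLA_2_ WT and at 23177, 39473 and 32210 in those labelled cPLA_2_ KO, an order shared with *Ccl3*. What sets these libraries apart was not tested. Fitting without the 6 LPS libraries, or with LPS replicates 1 and 2 alone, both chosen after seeing the data, changed no call of a member.

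Levels of different genes were compared per length, as reads per kilobase of the canonical transcript with all libraries brought to one depth (RPKM). On this scale *Ccl6* was the highest member in nonconfined cPLA_2_ WT cells, at 2991 ± 58.0 (SD, n = 3), followed by *Ccl17* at 1008 ± 10.0 and *Ccl22* at 736 ± 10.2. The first 3 places were the same in nonconfined cPLA_2_ KO and in both confined conditions, with *Ccl6* at 4836 ± 116 in confined cPLA_2_ KO cells. Other places changed. *Ccl5* held place 4 in confined cPLA_2_ WT at 750 ± 4.05 and place 7 in confined cPLA_2_ KO cells at 78.1 ± 6.04, whereas *Ccl2* went from place 5 in nonconfined to place 7 in confined cPLA_2_ WT cells. Under the label LPS cPLA_2_ WT *Ccl22* came first at 6822 ± 186, then *Ccl17* at 5912 ± 384, *Ccl5* at 2431 ± 93.2, *Ccl4* at 2183 ± 421 and *Ccl6* at 2101 ± 52.3, the last 3 within the spread of *Ccl4*. *Ccl1* was last in all 6 conditions, from 0.307 ± 0.0798 in nonconfined cPLA_2_ KO to 111 ± 17.5 under the label LPS cPLA_2_ KO (SD, n = 3 throughout).

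Of 14 other CC ligands 13 were in the table, 6 of which (*Ccl11*, *Ccl19*, *Ccl21a*, *Ccl21b*, *Ccl21d* and *Ccl26*) were listed at 0 in all libraries and 5 of which were tested. *Ccl24* (eotaxin-2), which attracts eosinophils, was at 13.7, 11.9 and 9.83 in nonconfined and 89.9, 49.7 and 64.0 in confined cPLA_2_ WT libraries, and at 18.8, 7.45 and 3.88 against 25.9, 52.3 and 39.2 in cPLA_2_ KO libraries. It was called higher with confinement in both genotypes, at 2.39 and 2.05 (adjusted p = 3.73e-05 and 0.000331 from limma), 1 of the 5 in each (11.4% and 6.43% of all genes). *Ccl12*, a CCR2 ligand, was called lower in confined cPLA_2_ KO cells (-1.67, adjusted p = 2.22e-06), with an interaction of -1.18 (adjusted p = 0.00715). Its means were 98.1 and 70.3 in nonconfined and confined cPLA_2_ WT and 93.4 and 29.4 in the corresponding cPLA_2_ KO cells. LPS raised *Ccl12* (1.71) and *Ccl24* (2.07) and lowered 0 of the 5 by limma, where 15.6% of all genes were called higher and 13.4% lower. *Ccl20* was also called higher (3.35), but it passed the filter on low values only through LPS libraries. Its call was therefore fixed by the filter, and only its values are described. *Ccl20*, a CCR6 ligand, was listed at 0 in 10 of the 12 libraries without LPS and had a mean of 12.9 after LPS. *Ccl25* and *Ccl27a* were called in none of these comparisons. The median over these 5 genes was 0.06 with confinement in cPLA_2_ WT, -0.02 in cPLA_2_ KO and 1.71 with LPS, the last with *Ccl20* included.

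Of the receptors of CC ligands 10 of 12 passed the filter in these libraries. With confinement in cPLA_2_ WT cells 5 rose (*Ccr3*, *Ccr4*, *Ccr7*, *Ccr10* and *Ccrl2*) and 2 fell (*Ccr2* and *Ccr6*). Of all genes 11.4% were called higher and 7.62% lower there. The median of the receptors was 0.87, against -0.01 over all genes. In cPLA_2_ KO cells 0 rose (6.43% of all genes) and *Ccr3* fell (5.53% of all genes), with a median of -0.02 against 0.01. The interaction was called lower for *Ccr3*, *Ccr7* and *Ccrl2* (6.56% of all genes). *Ccrl2*, a receptor-like protein that binds chemerin, was at 411, 397 and 438 in nonconfined and at 8567, 7991 and 8012 in confined cPLA_2_ WT libraries, and at 632, 608 and 663 against 1064, 928 and 979 in cPLA_2_ KO libraries. Its interaction was -3.66 (standard error 0.14, adjusted p = 8.95e-15 from limma). *Ccr7*, the receptor that brings DCs to lymph nodes, had means of 15884 and 32945 in nonconfined and confined cPLA_2_ WT cells, 16451 and 8919 in cPLA_2_ KO cells, and 50294 and 51727 under the LPS labels. Like *Ccl5* and *Ccl22*, it was lower with confinement in cPLA_2_ KO cells (-0.88, adjusted p = 3.51e-12, under the threshold on the fold change), with an interaction of -1.93. *Ccr4*, the receptor for *Ccl17* and *Ccl22*, was lower in cPLA_2_ KO than in cPLA_2_ WT cells, both nonconfined (-1.34, adjusted p = 0.00126) and confined (-2.15, adjusted p = 2.43e-07). *Ccr1*, the receptor for *Ccl6* and *Ccl9*, had means between 21196 and 25531 without LPS and of 14626 and 14741 under the LPS labels. After LPS 5 receptors were higher (*Ccr4*, *Ccr7*, *Ccr9*, *Ccr10* and *Ccrl2*) and 2 lower (*Ccr2* and *Ccr6*), where 15.6% of all genes were called higher and 13.4% lower. *Ccr8*, the receptor for *Ccl1*, and the atypical receptors *Ackr1*, *Ackr2* and *Ackr4* were under 10 in every library.

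For each member the 3 genes with the most similar profile were listed, by Pearson's r of log2 values over the 18 libraries, among 10421 genes with a mean of at least 100. These profiles share their libraries and are dominated by the difference between LPS and other cells, so r is a description only. *Ccl3* was most like *Arhgef3* (0.999), *Tnf* (0.998) and *Itgb1* (0.997), and *Ccl4* like *Gpr84* (0.998), *Ch25h* (0.997) and *Lcp2* (0.997). *Ccl5* was most like *Xaf1*, *Trim30a* and *Irgm1* (0.997 each). *Ccl22* was nearest to *Lad1* (0.999), *Apol7c* (0.998) and *Pnp* (0.998), and *Ccl17* to *Cst7* (0.999), *Psma4* (0.997) and *Dsel* (0.996). *Ccl7* was nearest to *Apol7c* (0.997), *Tlr1* (0.995) and *Ccl22* (0.994), the only member found among these genes, and *Ccl2* to *H2-M2* (0.992), *Hcls1* (0.991) and *Tspan33* (0.991). *Ccl9* had *Cxcl2* (0.997), *Cxcl3* (0.996) and *Bzw1* (0.996), and *Ccl1* had *Msn* (0.994), *Acsl1* (0.994) and *Ms4a6d* (0.993). *Ccl6* stood apart, with *Lyz2* (0.979), *Map1lc3b* (0.973) and *Adgrg3* (0.963).

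The members lie in 3 regions of GRCm39. On chromosome 11 the table places *Ccl2* (GSMG0007871) at 81926401-81928278 and *Ccl7* (GSMG0007872) at 81936536-81938347, both on the plus strand, and *Ccl1* (GSMG0009692) at 82067485-82196516 on the minus strand. This stretch of *Ccl1* is 129032 bases long, whereas its canonical transcript starts at 82070744 and has 620 bases. Levels of *Ccl1* per length divide all its reads by these 620 bases. A second region of the same chromosome holds *Ccl5* (GSMG0009720) at 83416607-83421345, *Ccl9* (GSMG0009721) at 83463743-83469462, *Ccl6* (GSMG0009723) at 83478712-83483913 and *Ccl3* (GSMG0009724) at 83538670-83540204, all on the minus strand, and *Ccl4* (GSMG0007898) at 83553410-83556266 on the plus strand. *Ccl22* (GSMG0053850) at 95472218-95478327 and *Ccl17* (GSMG0053853) at 95537074-95538663 are on the plus strand of chromosome 8. The canonical transcripts have 3 exons, except those of *Ccl6* and *Ccl9* with 4. Genes of a region did not all move alike, since *Ccl5*, with the lowest interaction of the members, and *Ccl6*, with an interaction above 0, lie in the same region. In the GENCODE annotation no exon of a member overlapped an exon of another gene on the same strand, and only *Ccl3* overlapped one on the opposite strand, *Gm53692*. No stretch of 50 bases in the canonical transcripts was shared with another gene, except for 78 of the 2962 stretches (2.63%) of *Ccl9*, none of them shared with another listed chemokine gene.

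**Figure D3:**
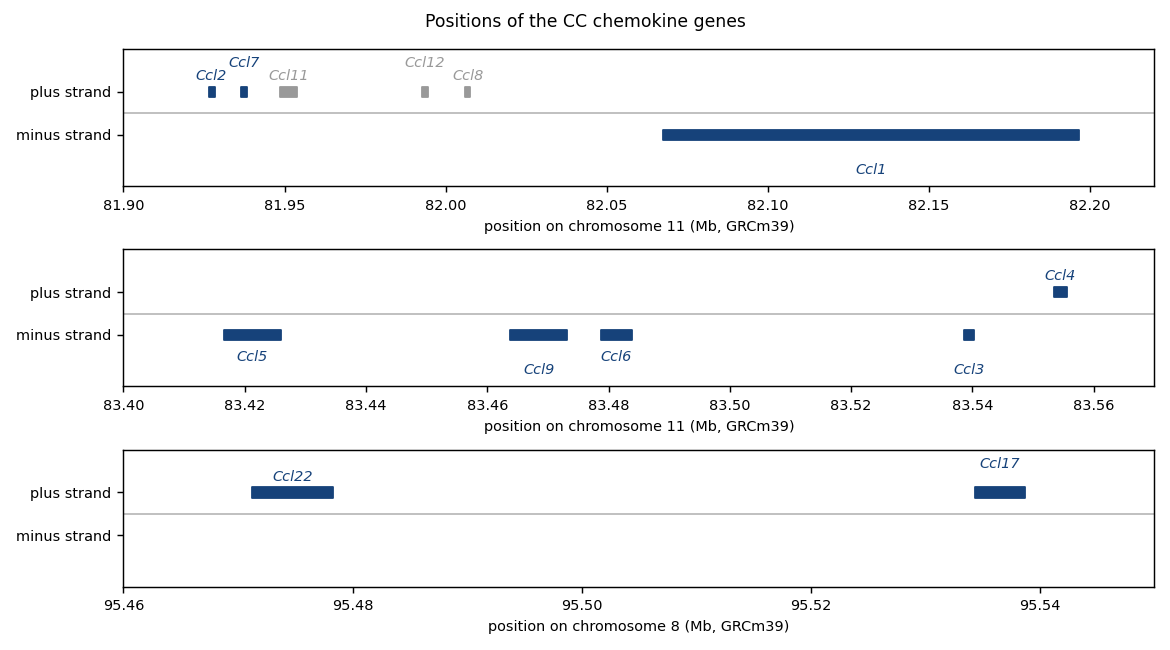
Positions and strands of the 10 CC chemokine genes in 3 regions of GRCm39, drawn to scale in each panel. The bar of *Ccl1* covers the whole GENCODE gene of 129034 bases, far more than its canonical transcript. *Ccl3*, *Ccl4*, *Ccl5*, *Ccl6* and *Ccl9* lie together on chromosome 11, and *Ccl22* and *Ccl17* lie near each other on chromosome 8.

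The bases before the start of each gene were searched for motifs, because several members moved together. Of the 10 members 6 had a promoter in the RefSeq table for GRCm38.p6 (*Ccl1*, *Ccl3*, *Ccl6*, *Ccl9*, *Ccl17* and *Ccl22*), and *Ccl2*, *Ccl4*, *Ccl5* and *Ccl7* were not matched. In the 250 bases before the start, the NF-κB consensus was found on either strand in 3.9% of 32841 promoters, the interferon-stimulated response element (GAAA, any 2 bases, GAAA) in 2.98%, the AP-1 motif TGANTCA in 6.75% and TATAAA on the gene's strand in 7.59%. *Ccl9* held a match to the NF-κB consensus from 35 to 26 bases before the start, 1 to the AP-1 motif from 53 to 47 and 1 TATAAA from 92 to 87, none of them overlapping. The other 5 promoters held none of the 4 motifs in this window, which says only that these letters are not there. Shown 5′ to 3′ on the strand of each gene are *Ccl9* (chr11:83578637-83578886, minus strand) and *Ccl3* (chr11:83649379-83649628, minus strand), called higher with confinement in cPLA_2_ WT cells, *Ccl22* (chr8:94745434-94745683, plus strand), called lower in confined cPLA_2_ KO cells, and *Ccl6* (chr11:83593088-83593337, minus strand), called in neither. Capitals mark the match to the NF-κB consensus.
Ccl9: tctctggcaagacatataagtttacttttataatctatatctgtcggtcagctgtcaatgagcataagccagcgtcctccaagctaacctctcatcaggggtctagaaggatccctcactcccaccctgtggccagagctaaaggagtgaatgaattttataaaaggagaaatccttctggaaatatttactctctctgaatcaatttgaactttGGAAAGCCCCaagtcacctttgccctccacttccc
Ccl3: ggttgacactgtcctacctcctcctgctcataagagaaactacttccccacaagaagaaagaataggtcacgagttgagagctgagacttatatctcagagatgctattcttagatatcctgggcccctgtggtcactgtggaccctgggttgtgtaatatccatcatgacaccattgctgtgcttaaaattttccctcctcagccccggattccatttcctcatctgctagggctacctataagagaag
Ccl22: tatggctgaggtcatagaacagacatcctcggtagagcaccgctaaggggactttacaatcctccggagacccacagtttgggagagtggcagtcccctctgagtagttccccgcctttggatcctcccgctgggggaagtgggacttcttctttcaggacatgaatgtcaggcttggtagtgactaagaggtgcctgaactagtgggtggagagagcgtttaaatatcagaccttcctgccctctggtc
Ccl6: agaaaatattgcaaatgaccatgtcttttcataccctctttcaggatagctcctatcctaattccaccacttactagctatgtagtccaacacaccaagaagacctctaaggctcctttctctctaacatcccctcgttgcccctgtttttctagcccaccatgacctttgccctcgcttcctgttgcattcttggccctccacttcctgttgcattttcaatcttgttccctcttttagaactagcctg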

How the data were processed

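RNA of 18 libraries of mouse bone marrow-derived DCs, 3 for each of 6 conditions, was sequenced from stranded, paired-end poly(A) libraries. The authors aligned reads to mm39/GRCm39 with STAR 2.7.5a, counted them with featureCounts 1.5.0 on the FAST DB annotation and normalized them with DESeq2 in R 3.5.3. The deposited signal is a normalized count, a gene count divided by a DESeq2 size factor per library. Of the values, 100% were whole reads (tolerance 0.01, largest deviation 2.68e-09) after multiplication by the size factor recovered for each library. Of 62197 rows 37020 had no symbol. Reads on genes were 33027230 to 61300021 per library, with a median of 40950398; intervals from counting were not computed because the spread between libraries is larger.

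The filter kept 17875 genes that reached 10 normalized counts in 3 or more libraries, and these were tested with limma 3.58.1 in R 4.3.3, on log2(normalized count + 1), with a mean per condition and a trended prior. Adjusted p is Benjamini-Hochberg over all genes of a comparison. Calls needed an adjusted p below 0.05 together with a log2 difference of more than 1 in either direction. On the recovered reads, edgeR 4.0.16 and DESeq2 1.42.0 were run as alternatives. For confinement in cPLA_2_ WT cells limma called 3400 genes, edgeR 3393 and DESeq2 3502, for confinement in cPLA_2_ KO cells 2139, 2162 and 2295, for the interaction 1371, 1342 and 1441, and for the genotypes in confined cells 1805, 1742 and 1829. In the same order the tools called 206, 183 and 181 genes between the genotypes in nonconfined cells, 5188, 5230 and 5275 with LPS, 2647, 2758 and 2775 between confined cPLA_2_ WT and LPS cells, and 4227, 4286 and 4337 between confined cPLA_2_ KO and LPS cells. Between the LPS labels each tool called 0, with 890 genes at an unadjusted p under 0.05 in limma.

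Genes named in the text are the 10 members, lists of other CC ligands, CC receptors and atypical receptors, *Pla2g4a*, 5 genes that check sex, marker genes of DCs, macrophages, neutrophils, eosinophils, mast cells and basophils, T cells and natural killer cells, and for each member the 3 genes with the highest Pearson's r among genes with a mean of at least 100. A further marker list and 1 of the receptors are not reported here. Members and lists were chosen with earlier results of these data known. *Gm53692* was named after its overlap was seen. Alternatives were the pseudocount, the filter, scaling, the test, the fitted libraries, the replicate number as a block, the call rule and each library left out in turn. Positions and exons came from GENCODE on GRCm39, promoters from RefSeq on GRCm38.p6, and figures were drawn with matplotlib 3.10.9. Which of the named library kits was used for which library is not known, so it could not be modelled. Collection times differ between treatments, mice of both sexes were used, and the LPS labels are in doubt, which limits what these comparisons can separate.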

Additional observations from a re-analysis of the deposited data

Results flagged for a closer look

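For 7 of the 10 members the change with confinement differed between genotypes by the interaction test of limma at an adjusted p under 0.05, a rule that 25.8% of all genes passed in either direction and 15.6% of all genes in the lower one. The change in cPLA_2_ KO minus that in cPLA_2_ WT cells was -3.24 on the log2 scale for *Ccl5*, -2.02 for *Ccl4*, -1.68 for *Ccl3* and -1.56 for *Ccl22*, which also passed the threshold on the fold change. It was -0.65 for *Ccl7*, -0.47 for *Ccl9* and -0.44 for *Ccl17*, which did not, and shrank to -0.28 for *Ccl9* and -0.25 for *Ccl17* with the same total per library. All 7 were lower in cPLA_2_ KO cells, but with the same total per library *Ccl6* also passed the adjusted p, in the other direction (0.31, adjusted p = 0.00033 from limma). Markers of other cells also differed between confined cPLA_2_ KO and confined cPLA_2_ WT cells. Called higher in cPLA_2_ KO were 6 of 9 neutrophil, 4 of 5 eosinophil and 4 of 8 tested mast cell and basophil genes (2.79% of all genes). In these lists 0 were called lower (7.31% of all genes). Of 8 tested macrophage genes 1 was called higher and 1 lower. In nonconfined cells 3 of 5 eosinophil, 1 of 9 neutrophil and 1 of 8 macrophage genes were called higher in cPLA_2_ KO (0.85% of all genes). There 0 mast cell and basophil genes were called. The interaction was called higher for 2 of the 9 neutrophil genes and for 0 genes of the other lists named here (1.11% of all genes). It was called lower for 1 macrophage gene (6.56% of all genes). Genotype and the presence of cells with a Y chromosome cannot be told apart in these libraries, and what causes the difference was not tested.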

How the results depend on the processing

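The log2 changes of the 10 members in the 9 comparisons gave 1739 values under the alternatives, of which 1706 kept their direction and their side of the threshold, 1 lost and 2 gained the call, and 30 changed sign. With the replicate number as a block, the members' counts were unchanged and all genes called became 3392, 2128, 1340, 186, 1790, 5195, 0, 2643 and 4223 in the order of the 9 comparisons (confinement in cPLA_2_ WT, in cPLA_2_ KO, interaction, genotype in nonconfined and in confined cells, LPS, LPS labels, confined cPLA_2_ WT and confined cPLA_2_ KO against LPS). No pair of conditions had all 3 residual correlations of same-numbered libraries above 0.1, and the main fit did not pair replicates. Between confined cPLA_2_ WT and confined cPLA_2_ KO cells they were 0.338, 0.208 and 0.0402, so whether some of these libraries were paired is not settled.

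By the adjusted p alone the counts of members that moved were 9 higher and 1 lower, 5 higher and 5 lower, 7 lower, 2 higher and 2 lower, 1 higher and 8 lower in the first 5 comparisons, 1 lower with LPS, and 1 higher in each of the last 2 comparisons; the 9 higher with LPS and the 9 lower in each of the last 2 did not move by more than 1.5 times. All genes were then 10113, 8271, 4619, 1588, 7038, 12774, 9701 and 11238, without the LPS labels. With calls at 1.5-fold and 0.05 on the unadjusted p, 3 members were higher with confinement in cPLA_2_ KO and 1 in confined cPLA_2_ KO against LPS, and all genes were 6167, 4227, 2956, 1000, 3475, 8238, 316, 4978 and 6970. A filter of 100, which tests fewer genes, gave 1999, 1087, 96, 1061, 3148, 1364 and 2416 for confinement in each genotype, the genotypes in nonconfined and confined cells, LPS and both comparisons against LPS. Without a filter 1 gene was called between the LPS labels. Leaving out single libraries gave 125 to 238 genes, against 206 with all, between nonconfined genotypes (125 without nonconfined cPLA_2_ WT replicate 2 or cPLA_2_ KO replicate 1), 0 to 1 between the LPS labels (1 without LPS cPLA_2_ WT or LPS cPLA_2_ KO replicate 2), and 1 to 2 members higher with confinement in cPLA_2_ KO cells (2 without confined cPLA_2_ KO replicate 1).

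With the same total per library *Ccl6* was called higher in confined cPLA_2_ KO cells against LPS (1 member, 1.20), *Ccl9* there moved to -0.64, and *Ccl7* with confinement in cPLA_2_ WT cells moved to -0.000632. The share of higher among called genes moved from 59.9% to 43% for confinement in cPLA_2_ WT, 14.4% to 33.6% for the interaction, 27.6% to 41.2% between genotypes in confined cells, 53.8% to 28.3% with LPS, 47% to 68.9% and 45.3% to 71.8% for confined cPLA_2_ WT and cPLA_2_ KO cells against LPS. The median of all genes moved to 0.24 for the interaction, 0.19 between confined genotypes, and 0.27 and 0.46 against LPS.

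Reversed signs were found mainly where the adjusted p was above 0.05. The interaction of *Ccl1* was 0.00351 with a pseudocount of 0.5, 0.17 with the same total, 0.0905 in edgeR and 0.11 in DESeq2, and -0.32 to 0.17 when single libraries were left out. Between the LPS labels *Ccl6* was 0.00126 with TMM, 0.00269 in edgeR and 0.000301 in DESeq2. Leaving out single libraries there gave -0.0570 to 0.23 for *Ccl1*, -0.0548 to 0.18 for *Ccl2*, -0.17 to 0.16 for *Ccl3*, -0.16 to 0.14 for *Ccl4*, -0.0410 to 0.0498 for *Ccl6*, -0.0160 to 0.18 for *Ccl7* and -0.0377 to 0.0473 for *Ccl17*. *Ccl6* with LPS from the labels cPLA_2_ WT alone was 0.00361. The cause of these changes was not tested. The fit without the LPS libraries and that with LPS replicates 1 and 2 alone were chosen after seeing the data. Depth limits *Ccl1* without LPS, at under 60 normalized counts.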
